A study of Mus musculus with 102 samples.

Results

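The Dlk1 and Meg3 imprinted domain was examined as 403 captured CpGs of 2177608 in the whole capture table. They are all the captured CpGs on mm9 chromosome 12 between 110690000 and 110815000. Membership follows position alone, while the domain itself was picked with earlier results of these data known. Methylation was measured by SureSelect capture of genomic DNA followed by bisulfite sequencing in mouse embryonic stem cells (mESCs) of strain C57BL6/J. TTKO cells carry a TET triple knockout, and they are 1 clone made from a line whose Dnmt3a and Dnmt3b alleles can be removed by Cre recombinase. At day 0 TTKO cells were not transduced and Dnmt3a/3b were intact. On each later day, from day 4 to day 29 (4, 8, 10, then 13, 17 and 29), the same line had received Cre protein, after which its Dnmt3a/3b are labelled catalytic dead. The wild-type cells are the parental line, non-transduced, with TET proteins present and Dnmt3a/3b intact, measured at day 0. The capture assay had no mock-transduced cells. Each of these 8 conditions had 3 replicates, which the authors joined into 1 column, so no spread between replicates can be given here, and each test compares joined libraries rather than conditions.

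Dlk1 encodes a membrane protein of the Notch ligand family that acts in growth and differentiation, and Meg3 (also called Gtl2) is a long noncoding RNA. In this domain Dlk1 is expressed from the paternal chromosome and Meg3 from the maternal one. The switch is an intergenic control region between the genes, whose paternal copy is methylated from the germline on, while the Meg3 promoter gains its paternal methylation later, in the embryo. After fertilization, methylation of imprinting control regions is kept by DNMT1, which copies methylation at replication, and by the zinc finger protein ZFP57, which binds a methylated hexamer. DNMT3A and DNMT3B methylate DNA de novo, and TET enzymes oxidize methylated cytosine. Because the cells are of an inbred strain and the files hold levels per CpG, the parental copies cannot be told apart in these data, and a level of intermediate size is a mean over both copies and over all cells.

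Dlk1 (ENSMUSG00000040856.11) lies on the plus strand of chr12:110691033-110701546 and Meg3 (ENSMUSG00000021268.10) on the plus strand of chr12:110779211-110809936, in mm9 coordinates of the GENCODE M1 annotation. The 403 CpGs fell into 6 sub-regions and a pair of single sites. The Dlk1 promoter, within 1 kb of the gene's start, held 39 of them, and the Dlk1 body 72. The upstream intergenic stretch, from the Dlk1 end to 15 kb before the Meg3 start, held 45. The control region window, 15 to 8 kb before the Meg3 start, held 97 of the 157 CpGs in its sequence. The Meg3 promoter, within 2 kb of the start, held 94 of its 122 CpGs, and the Meg3 body 54, the last of them at position 110789713. The gap between control region and Meg3 promoter held only 2. The bounds of the control region window follow textbook distances and not an annotation. Coverage in the domain was 50 to 1268 reads per CpG and column, and the median per column ran from 147 reads at day 8 to 256 at day 10. Reads are counted without molecular identifiers, so the 95% Wilson intervals below cover counting error only. Neighbouring CpGs share reads and are not independent.

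The first sequence shown is the densest run of captured CpGs in the control region window, chr12:110766463-110766682, plus strand of mm9, intergenic, 220 bases with 29 CpGs, all captured. It was picked by its number of captured CpGs. Capitals mark the 5 matches to the ZFP57 hexamer TGCCGC or its reverse complement GCGGCA, searched on both strands.
Densest control region run: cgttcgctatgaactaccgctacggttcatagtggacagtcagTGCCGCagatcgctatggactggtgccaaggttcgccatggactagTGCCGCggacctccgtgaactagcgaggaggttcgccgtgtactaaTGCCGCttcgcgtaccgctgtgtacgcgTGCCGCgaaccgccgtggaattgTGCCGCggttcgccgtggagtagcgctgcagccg
The other 3 captured CpGs inside a hexamer in the control region window and the Meg3 promoter are shown with 10 bases on each side, again with the hexamer in capitals. They lie at chr12:110764391-110764416 and chr12:110768641-110768666 in the control region window and at chr12:110779006-110779031 in the Meg3 promoter.
Hexamer near the window's Dlk1 side: tggttgcctaGCGGCAgtgagaatga
Hexamer in the window's inner part: gtcggcggttTGCCGCaacctaattc
Hexamer before the Meg3 start: caggggcactGCGGCAgatttttttt
Stretches on both sides of this run, within the same window, are shown as the contrast, since their CpGs began high in TTKO cells and fell. They are chr12:110764923-110765087 and chr12:110769888-110770047, both intergenic, with the captured CpGs in capitals.
High stretch on the Dlk1 side: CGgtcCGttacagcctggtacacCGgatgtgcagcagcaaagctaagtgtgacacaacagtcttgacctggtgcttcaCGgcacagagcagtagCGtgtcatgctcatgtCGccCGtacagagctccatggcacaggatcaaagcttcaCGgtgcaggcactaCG
High stretch on the Meg3 side: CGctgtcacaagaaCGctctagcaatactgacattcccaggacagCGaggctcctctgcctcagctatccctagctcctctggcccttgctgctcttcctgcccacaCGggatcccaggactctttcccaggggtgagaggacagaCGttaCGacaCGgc

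The hexamer was frequent in the control region window. Its 7000 bases held 10 matches, 6 on the plus strand and 4 on the minus strand, which is 1.43 per kb. At least 1 match was present in 30.1% of all 7000-base tiles of chromosome 12, and 1 of 16759 tiles, outside the window, held 10 or more, the grid of tiles splitting the window itself. For tiles of 220 bases, the length of the run above, 1.31% held at least 1 match, and the only 1 of 533877 that held 5 overlapped the control region window. The Meg3 promoter held 1 match, and 19.3% of tiles of its length held at least 1. Among captured CpGs, 7 of 97 in the window, or 7.22%, lay inside the hexamer, beside 1.05% over the whole capture. The run was picked by its number of captured CpGs, and the hexamer itself holds a CpG. The tiles were not matched for CpG content, so frequency at equal CpG density was not tested. These matches describe the letters only and are not binding sites.

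Across the domain, levels fell after the removal of DNMT3A and DNMT3B, with the fall uneven between sub-regions. The mean of all 403 CpGs over the 7 TTKO columns in order was 48.6%, 46.9%, 43.5%, 41.7%, 40.1%, 36.8% and 31.6%, and the wild-type mean was 37.2%. Over all captured CpGs the mean fell from 35.8% to 19.6% between the first and the last column, and the wild-type mean was 23.4%. The domain thus kept 65.0% of its day 0 mean and the whole capture 54.6%. By a two-sided Fisher's exact test on read counts, adjusted over all captured CpGs (adjusted p below 0.05), 1 of 403 CpGs was lower on the earliest day after Cre than at day 0, and 29, 122, 167, 230 and 281 were lower on the later days in order. These are 0.248%, 7.20%, 30.3%, 41.4%, 57.1% and 69.7% of the domain. Over the whole capture the shares called lower were 1.55%, 14.4%, 35.7%, 43.6%, 55.7% and 59.3%. No CpG of the domain was called higher at day 29, beside 0.171% of all captured CpGs.

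**Figure D1:**
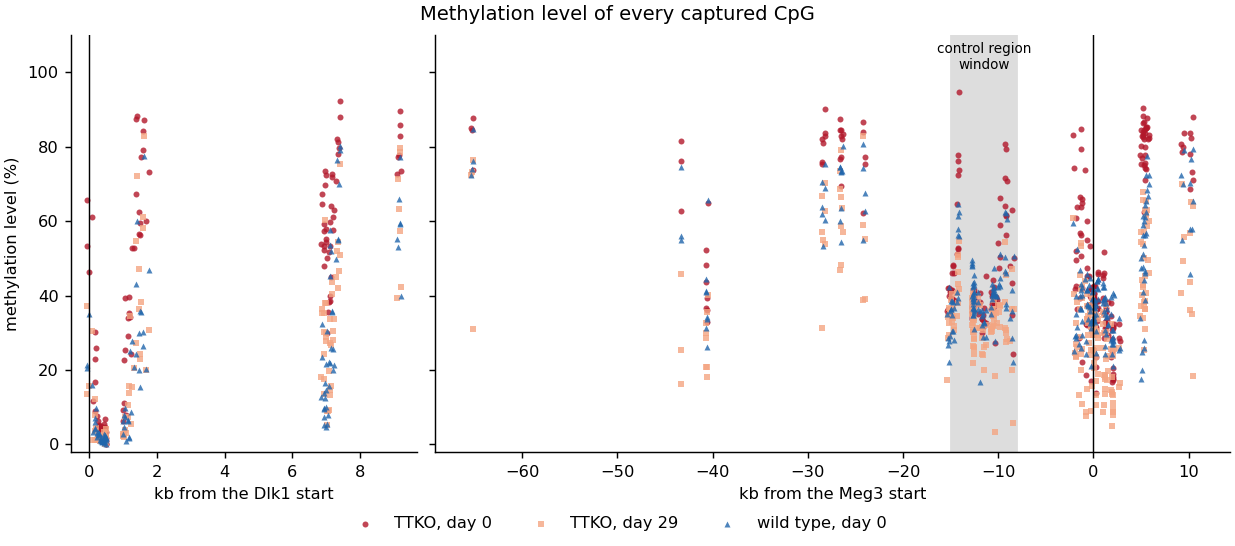
Methylation level (%) of each captured CpG by distance (kb) from the Dlk1 start on the left and from the Meg3 start on the right, in TTKO cells at day 0 and day 29 and in wild type, 1 joined column each. In the shaded control region window and around the Meg3 start most day 0 and wild-type points lie in a band near 40%. Day 29 lies lower, with medians of 34% in the window and 27.25% in the Meg3 promoter. At day 0, 40 of the 54 CpGs of the Meg3 body and 24 of the 45 of the upstream stretch lie between 70 and 90%.

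The sub-regions ranked differently in how much they kept. The control region window had a mean of 44.8% at day 0 and 33.6% at day 29, which is 75.1% of its day 0 mean. The upstream intergenic stretch went from 65.3% to 46.4% and kept 71.0%. The Meg3 promoter went from 40.4% to 26.9% and kept 66.4%. The Meg3 body went from 69.3% to 41.8%, or 60.4% kept, and the Dlk1 body from 57.9% to 32.2%, or 55.6% kept. The order of the gene bodies turned with at least 100 reads in every column, where the Dlk1 body kept 62.0% and the Meg3 body 59.7%. The Dlk1 promoter, already low, went from 11.2% to 4.52%, or 40.3% kept. The differences between sub-regions were not tested, since their CpGs are not replicates.

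**Figure D2:**
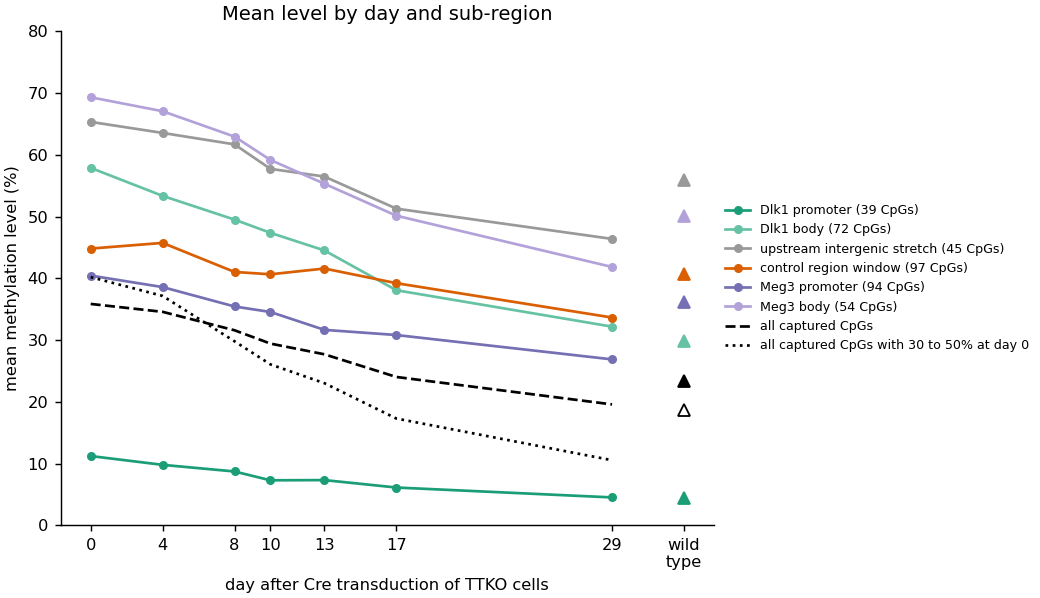
Mean methylation level (%) of the captured CpGs of each sub-region in TTKO cells by day after Cre, with wild type as triangles at the right; the dashed line is all captured CpGs and the dotted line those with 30 to 50% at day 0. The control region window starts beside the dotted line, at 44.8% against 40.2%, and ends at 33.6% against 10.5%.

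In the control region window the inner 4 kb, 14 to 10 kb before the Meg3 start, was even in level. Its 60 CpGs had a mean of 37.6% ± 3.18 (SD over CpGs) at day 0, with a range of 27.2% to 45.2%. Their means at days 4, 8, 10, 13 and 17 were 38.8%, 34.2%, 35.4%, 38.1% and 35.8%. At day 29 the mean was 31.8% ± 6.29, and in wild type it was 38.5% ± 5.53. The inner part kept 95.3% of its day 0 mean at day 17 and 84.7% at day 29. In it 0 CpGs were called lower by Fisher's exact test at days 4, 8, 10 and 13, 4 at day 17 and 18 at day 29, and 1 was called higher at day 13. The 42 others did not pass at day 29, which does not show that they did not differ.

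The outer parts of the same window began higher on average and lost more, though not throughout. On the Dlk1 side, 15 to 14 kb before the Meg3 start, 18 CpGs had a mean of 55.9% at day 0, which fell to 39.8% at day 29, and of 43.9% in wild type. These 18 fell into unlike parts, which were divided after their values were seen. The 9 CpGs at the window's bound, chr12:110764284-110764551, went from 43.4% to 35.2%, with 34.7% in wild type, and kept 81.1%, while the 9 nearer the inner part went from 68.4% to 44.5%, with 53.1% in wild type, and kept 65.0%. On the Meg3 side, 10 to 8 kb before, 19 CpGs had means of 57.2%, 33.6% and 44.2%. There too the CpGs nearer the inner part were higher, with 13 that went from 63.4% to 35.8% and 6 near the bound that went from 43.9% to 28.9%. The 37 outer CpGs together went from 56.6% at day 0 through 57.0%, 52.1%, 49.2%, 47.2% and 44.7% to 36.6%, and 27 of them were called lower at day 29. At day 29 single outer CpGs ranged from 5.7% to 54.8%, and the inner part had a mean of 31.8%.

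Of the sequences printed above, the high stretches were picked for their day 0 levels. The densest run was picked by its number of captured CpGs, and the others by the hexamer. Their levels are given as a description. The 29 CpGs of the densest run had a mean of 38.0% at day 0 and 40.3% in wild type, and over the 7 TTKO columns their mean ran from 33% (day 29) to 41.5%. Of these, 4 were called lower at day 29 and 0 were called different in wild type. Of the 9 CpGs of the high stretch on the Dlk1 side, described above, 7 were called lower at day 29. The 7 CpGs of the high stretch on the Meg3 side went from 67.9% to 36.8%, with 48.8% in wild type, and all 7 were called lower in both comparisons. Over the capture, 98.8% of CpGs with 50 to 70% and 93.8% of those with 70 to 90% at day 0 were called lower at day 29. In wild type these shares were 75.3% and 74.1%.

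**Figure D3:**
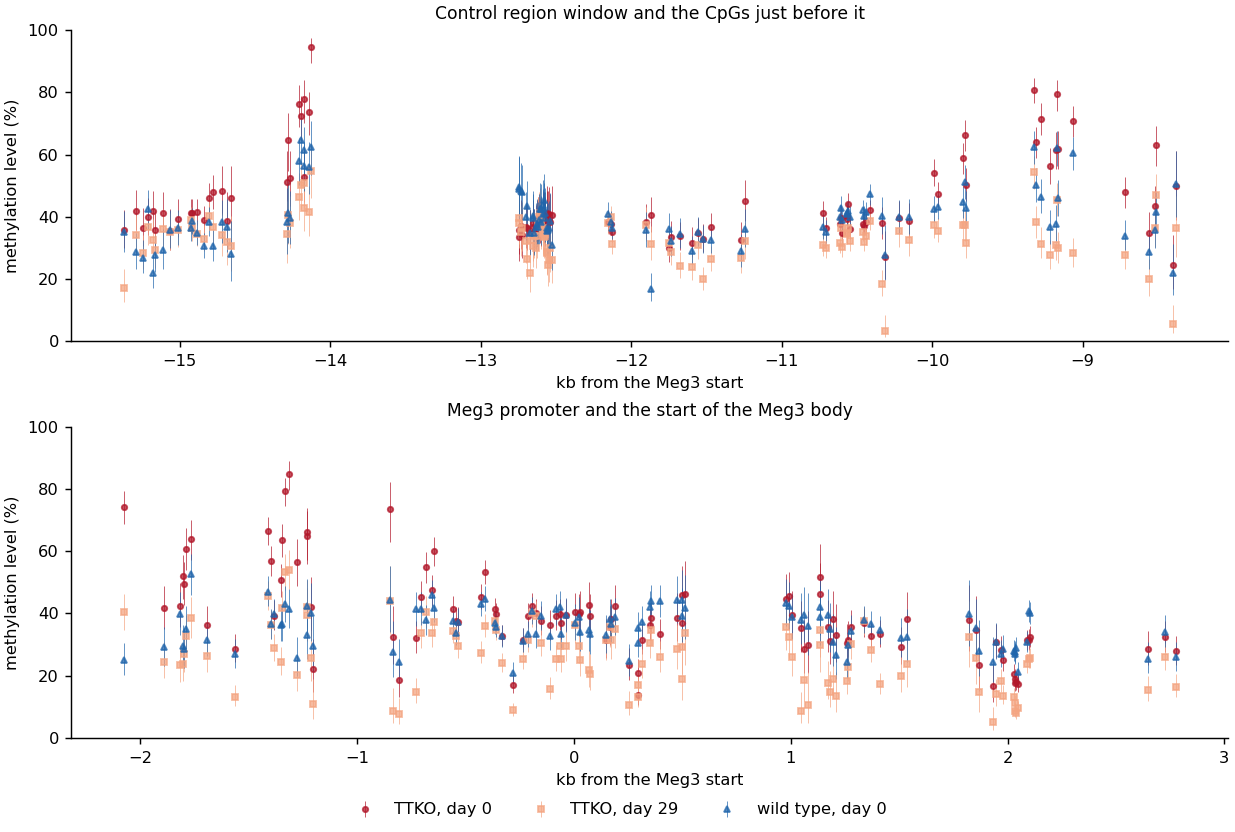
Methylation level (%) of single CpGs by distance (kb) from the Meg3 start, with 95% Wilson intervals of the reads as bars, in TTKO cells at day 0 and day 29 and in wild type. Upper panel, the control region window: between 13 and 10 kb before the start day 0 and wild type lie near 38% and day 29 lower, with means of 37.6%, 38.5% and 31.8%, and on both sides of this part lie CpGs whose day 0 level rises above the other columns. Lower panel, the Meg3 promoter: day 29 lies below day 0 and wild type at most CpGs.

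The CpGs that kept the largest share in the domain all lay in the densest run. The CpG at 110766463 had levels of 33.6%, 37.8%, 27.5%, 33.6%, 40.2%, 43.6% and 39.5% from day 0 to day 29, and 49.5% in wild type. The CpGs at 110766606 and 110766467 went from 38.5% to 41.3% and from 35.7% to 38.0%. None of these rises passed Fisher's exact test, with adjusted p of 0.492, 0.785 and 0.912. The CpGs at 110766463 and 110766485 also had the smallest TTKO minus wild-type differences in the window, at -15.9 and -13.6 percentage points, with adjusted p of 0.0524 and 0.0652. At the other end, the largest differences in the window lay in its outer parts. The CpG at 110765086 was at 94.7% (interval 89.5% to 97.4%, 133 reads) in TTKO cells and 62.6% (53.5% to 70.9%, 115 reads) in wild type, and fell to 54.8% at day 29 (Fisher's exact test, adjusted p = 1.1e-09 and 8.5e-14). The CpG at 110769933 was at 71.6% in TTKO cells, 46.5% in wild type and 31.4% at day 29 (Fisher's exact test, adjusted p = 1.7e-09 and 3e-23).

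The 7 captured CpGs inside a hexamer of the window had a mean of 40.5% at day 0 and 34.8% at day 29, with 39.7% in wild type. Their median share kept was 86.1%, beside 79.8% for the window's 90 other CpGs. But 6 of the 7 lay in the inner part, whose 60 CpGs had a median of 86.6%, against 66.7% for the 37 outer ones, so the hexamer CpGs did not stand above their neighbours. They were not uniform. The CpG at 110766601 was at 39.9% and 40.0% at day 0 and day 29, while the CpG at 110766652 was at 39.8% and 28.7%, and the CpG at 110766555 at 38.1% and 32.7%. Those at 110764402, 110766509 and 110766629 kept 87.8%, 87.7% and 86.1%. The CpG at 110768654, the deepest of them with 842 reads at day 0, went from 44.2% to 36.4%, the only 1 of the 7 called lower (Fisher's exact test, log2 odds ratio -0.47 ± 0.14 SE, adjusted p = 0.0021). The hexamer CpG before the Meg3 start, at 110779017, was at 42.3%, 39.6%, 37.8%, 39.2%, 35.6%, 42.5% and 40.1% from day 0 to day 29 and at 40.9% in wild type. The domain's other captured CpG inside a hexamer, at 110698001 in the last coding exon of Dlk1, lies outside the rule for named CpGs and was named after its values were seen. It was at 69.7%, 64.0%, 64.6%, 55.6%, 51.0%, 44.8% and 37.9% from day 0 to day 29 and at 16.5% in wild type, and was called lower in both comparisons, keeping 54.4%. Over all captured CpGs with 30 to 50% at day 0, those inside a hexamer kept a median of 26.4% and the others 23.5%.

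Single CpGs within the inner part departed from their neighbours. The CpG at 110768898 was at 27.2% (20.2% to 35.6%) at day 0, 19.4%, 20.0%, 19.6%, 18.9% and 10.1% at days 4 to 17, and 3.4% (1.3% to 8.5%, 116 reads) at day 29, with 27.7% in wild type. Its share kept, 12.5%, was among the 3 smallest in the domain (Fisher's exact test, log2 odds ratio -3.24 ± 0.75 SE, adjusted p = 5.4e-07). A run of cytosines follows it, whose part in this value was not tested, as its context shows, with captured CpGs in capitals on the plus strand of chr12:110768878-110768919.
Context of the CpG at 110768898: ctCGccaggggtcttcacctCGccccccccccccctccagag
Its neighbour at 110768880, in capitals on the left, kept 48.5%. A further CpG, at 110767342, was named after its values were seen. It was at 40.7% (35.3% to 46.3%, 300 reads) in TTKO cells and 16.9% (12.9% to 21.9%, 266 reads) in wild type, the only 1 of 60 inner CpGs called lower in wild type (Fisher's exact test, adjusted p = 2e-09).

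The Meg3 promoter held intermediate levels too, and lost more of them than the inner control region. The sequence around the start, chr12:110778961-110779260, plus strand, is shown with its 13 captured CpGs in capitals. It runs from intergenic sequence into the first Meg3 exon.
Meg3 start: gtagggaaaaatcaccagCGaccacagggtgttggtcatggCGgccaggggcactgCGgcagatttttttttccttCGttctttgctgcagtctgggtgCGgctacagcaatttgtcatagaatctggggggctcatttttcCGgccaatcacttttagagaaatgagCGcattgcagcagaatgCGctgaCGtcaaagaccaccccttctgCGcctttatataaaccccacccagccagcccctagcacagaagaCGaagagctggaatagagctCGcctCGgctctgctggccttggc
These 13 CpGs had a mean of 38.7% at day 0, which fell to 29.5% at day 29, with 36.7% in wild type. The CpG nearest the start, at 110779217, was at 40.5%, 43.7%, 39.1%, 34.8%, 39.8%, 40.9% and 36.3% from day 0 to day 29 and at 37.0% in wild type, and was called different in neither comparison (Fisher's exact test, adjusted p = 0.496 and 0.614). Over the whole promoter window, 66 of 94 CpGs were called lower at day 29, 28 were not, and the share kept by single CpGs ran from 24.3% to 102%. From 2 to 1 kb before the start 20 CpGs went from 53.4% to 31.6%, with 36.2% in wild type. In the next kb, up to the start, 27 CpGs went from 40.5% to 28.8%, with 36.8% in wild type. The first kb of the gene went from 36.6% to 27.3%, with 38.1% in wild type, and the second from 33.4% to 20.6%, with 33.6%. Wild-type means thus stayed within 33.6% to 38.1% over these 4 kb, while TTKO cells at day 0 ranged from 53.4% before the start to 33.4% after it.

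Past the promoter window the Meg3 gene passed through a low stretch before it became highly methylated. In a noncoding exon, 5 CpGs between 2029 and 2048 bases after the start were at 17.3% to 20.5% before Cre, 8.0% to 13.3% on the last day and 21.2% to 28.9% in wild type. A cluster of 32 CpGs about 5 kb after the start, at chr12:110784119-110785054, fell from a mean of 81.2% to 48.1% at day 29, with 51.5% in wild type. All 32 were called lower at day 29 and 31 in wild type, beside 93.8% and 74.1% of all captured CpGs with 70 to 90% at day 0. Within it the CpG at 110784198 was at 84.5% in TTKO cells and 17.7% (13.8% to 22.4%, 300 reads) in wild type, where its captured neighbours on either side were at 34.1% and 50.1%. The sharpest fall in the Meg3 body was at 110789619, in an intron, from 71.1% (68.1% to 73.9%, 941 reads) to 18.4% (926 reads) at day 29, with 65.4% in wild type. These clusters and CpGs were chosen after their values were seen.

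Dlk1 had a low, CpG-dense stretch at its start and high levels further on. In the first kb of the gene 36 captured CpGs went from a mean of 7.56% to 3.05% at day 29, with 2.73% in wild type, at 9.40 CpGs per 100 bases against 2.24 in the control region window. The CpG nearest the start, at 110691032, was higher and fell steadily, at 46.4%, 39.1%, 38.5%, 29.3%, 29.2%, 27.5% and 15.7% from day 0 to day 29 and at 35.1% in wild type (day 29 against day 0, Fisher's exact test, log2 odds ratio -2.19 ± 0.44 SE, adjusted p = 6e-07). In the first intron, the CpG at 110692051 went from 22.7% to 2.0% and that at 110692084 from 25.5% to 3.9%, with 4.6% and 7.4% in wild type. Keeping 8.81% and 15.3%, these were the other members of the 3 that kept least.

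In the last coding exon of Dlk1 wild type was far below TTKO cells, by a mean of 40.5 points over the exon's first 19 captured CpGs. The stretch chr12:110697955-110698076 is shown, on the plus strand, with its 14 captured CpGs in capitals. The hexamer around the CpG at 110698001 lies in it.
Last coding exon of Dlk1: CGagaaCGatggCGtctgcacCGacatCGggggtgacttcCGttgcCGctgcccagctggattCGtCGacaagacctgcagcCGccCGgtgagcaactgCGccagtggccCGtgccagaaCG
These CpGs fell from a mean of 54.9% to 26.2% at day 29 and were at 12.1% in wild type, and all 14 were called lower in both comparisons. Most began at 50 to 70%, where 98.8% of the capture was called lower at day 29 and 75.3% in wild type. The CpG at 110697995 was at 73.4% (65.9% to 79.7%, 154 reads) in TTKO cells and 12.4% (8.5% to 17.8%, 193 reads) in wild type (Fisher's exact test, adjusted p = 4.8e-31), yet still at 60.3% at day 29. That at 110698021 was at 55.1%, 4.6% and 29.9% in the same order. Further along the exon, over 18 CpGs, the wild-type mean rose to 47.8% beside 66.6% in TTKO cells. In the gene's final untranslated stretch, 7 CpGs kept 77.2% of their mean and ended at 61.7%, with 58.6% in wild type. These stretches were chosen after its values were seen.

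The upstream intergenic stretch was mostly highly methylated, with 2 short runs of intermediate level. Its remaining CpGs formed groups with means of 78.8% over 7 CpGs and 80.3% over 21 CpGs at day 0, and 48.6% and 58.8% at day 29. About 40 kb before the Meg3 start, 8 CpGs at chr12:110738506-110738754 fell from 44.3% to 28.4%, with 39.8% in wild type. Directly before the control region window, 9 CpGs at chr12:110763840-110764201 fell from 38.7% to 31.8%, with 31.6% in wild type. Both runs were chosen after their values were seen. This second run kept 82.1% of its mean, and 1 of its CpGs was called lower at day 29. It borders the first 9 CpGs of the window, whose levels were 38.8% to 48.3% at day 0. The 2 CpGs of the gap, at 110777060 and 110777137, fell from 83.1% to 60.8% and from 74.3% to 40.4%, and were at 59.4% and 25.0% in wild type.

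The share kept was also compared among CpGs of the same starting level, because in the whole capture CpGs of 30 to 50% at day 0 lost far more than highly methylated ones. There were 158188 such CpGs, whose mean went from 40.2% at day 0 through 37.1%, 29.8%, 26.1%, 23.0% and 17.3% to 10.5% at day 29, and their median share kept was 23.6%. Of them, 98.6% were called lower at day 29. In the domain 166 CpGs started in this range, kept a median of 78.1%, and 83 of them were called lower. In the control region window 71 CpGs kept a median of 85.8% and 23 were called lower. In the Meg3 promoter 63 CpGs kept a median of 73.5% and 40 were called lower. In the upstream intergenic stretch 15 kept 78.1% and 5 were called lower, and in the Dlk1 body 11 kept 33.1% and 10 were called lower. At least 80% of the day 0 level was kept by 49 of the 71 CpGs of the window (69.0%), by 20 of the 63 of the Meg3 promoter (31.7%) and by 0.728% of the capture in this range. Depth in the window was a median of 243 reads at day 0, beside 248 for all captured CpGs.

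In the other ranges the domain stood above, near or below the capture. Among CpGs of 10 to 30% at day 0, the 23 of the domain with at least 20% kept a median of 46.0%, and the capture's 17.8%. Among CpGs of 50 to 70%, 65 in the domain kept 54.4%, the 14 in the control region window 63.3%, and the capture 37.8%. Among those of 70 to 90%, the domain kept 63.8% and the capture 64.0%, with 59.0% for the 8 CpGs of the control region window, 58.8% for the 40 of the Meg3 body and 75.4% for the 24 of the upstream intergenic stretch. Above 90% there were only 4 CpGs in the domain, which kept 66.1%, and the capture kept 83.4%.

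**Figure D4:**
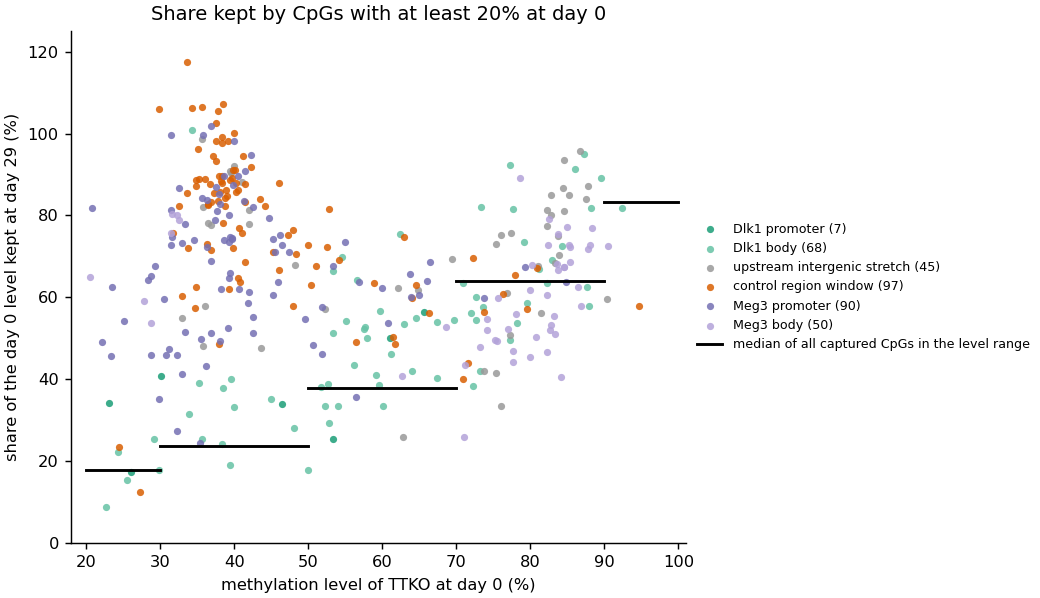
Share of the day 0 level kept at day 29 (%) against the level of TTKO cells at day 0 (%) for the CpGs of the domain with at least 20% at day 0, coloured by sub-region, with the median of all captured CpGs in each level range as black lines. Between 30 and 50% the control region window and the Meg3 promoter lie mostly above the line at 23.6%, while the Dlk1 body, with a median of 33.1%, lies closer to it.

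TTKO cells at day 0 differ from wild type in lacking TET enzymes and in being 1 clone, which cannot be told apart here. In wild type 175 of 403 CpGs (43.4%) were called less methylated and 10 (2.48%) more methylated by Fisher's exact test. Over the whole capture the shares were 44.7% and 0.907%. The 10 became 4 where a difference of at least 10 points was also required, and 6 with counts reduced for an over-dispersion of 0.0055 between replicates. The split by sub-region was wide. In the Dlk1 body 60 of 72 CpGs were called lower in wild type, with a mean difference of 28.0 percentage points, and in the Meg3 body 40 of 54, with 19.2 points. In the Meg3 body 6 were called higher, or 1 with a difference of at least 10 points. Over the capture 75.3% of CpGs with 50 to 70% and 74.1% of those with 70 to 90% at day 0 were called lower. Of CpGs with 70 to 90%, 37 of 40 in the Meg3 body (92.5%) and 21 of 24 in the Dlk1 body (87.5%) were. Of those with 50 to 70%, 24 of 27 in the Dlk1 body (88.9%) were. Both bodies were thus above the capture at these levels. In the Meg3 body 0 of 7 CpGs with 10 to 30% and 0 of 4 with 30 to 50% were called lower. In the control region window 22 of 97 were called lower, 0 higher, and 75 were not called, with a mean difference of 4.17 points. In its inner part 1 of 60 was called lower, and the mean was 0.983 points higher in wild type. In the Meg3 promoter 18 of 94 were called lower, 4 higher and 72 not called, with a mean difference of 4.29 points. With that over-dispersion 2 were called higher there. In the Dlk1 promoter 14 of 39 were called lower, or 7 with a difference of at least 10 points, and in the upstream intergenic stretch 19 of 45, or 12 with that over-dispersion.

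The same contrast was present among CpGs of one starting range. Among all captured CpGs of 30 to 50% in TTKO cells at day 0, 77.2% were called lower in wild type, with a median difference of 24.6 points. In the same range 21 of 166 were called lower in the domain (12.7%), 5 of 71 in the control region window, 2 of 63 in the Meg3 promoter and 9 of 11 in the Dlk1 body. The median differences were -0.2 points in the window, 1.5 in the Meg3 promoter and 27.2 in the Dlk1 body. The 10 CpGs more methylated in wild type all lay between 727 bases before and 2105 bases after the Meg3 start. They were at 13.7% to 33.3% in TTKO cells and 26.9% to 44.0% in wild type, higher by 7.5 to 16.9 points, and 7 of them were also called lower at day 29 than at day 0. The largest of these differences was at 110779509, in the first Meg3 intron, at 13.7% (10.5% to 17.7%, 350 reads) in TTKO cells and 30.6% (26.0% to 35.6%, 353 reads) in wild type, with 13.2% at day 29 (wild type against TTKO, Fisher's exact test, log2 odds ratio 1.46 ± 0.28 SE, adjusted p = 2.7e-07).

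**Figure D5:**
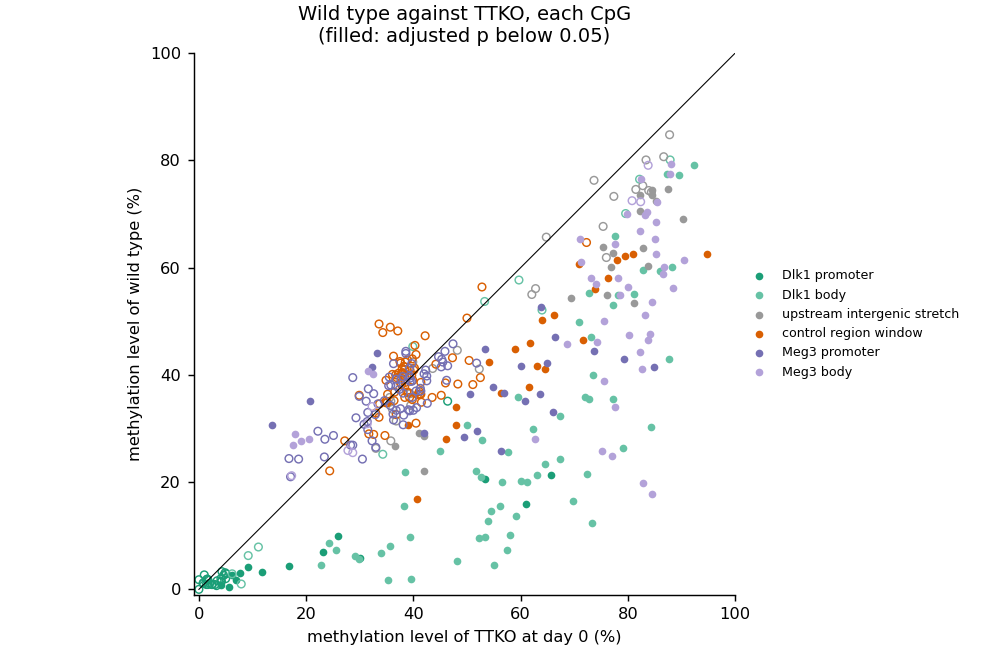
Methylation level (%) of wild type against TTKO cells at day 0 for each CpG, filled where the adjusted p of Fisher's exact test was below 0.05, with the line of equal level. CpGs of the control region window and the Meg3 promoter gather on the line near 40%, while those of the Dlk1 body lie up to 61.0 points below it.

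Rates of passive demethylation (k_de, the loss per day left to imperfect maintenance when TET is absent) and of de novo methylation (k_me) were inferred from the 7 TTKO columns with the study's model, fitted once to the joined reads. The study fitted each replicate separately, took the median of the rates and asked for identification in all replicates, so the rates and the count identified here are not those of its procedure. The rates rest on the same columns as the shares kept and are not independent of them. Rates were identified, with little probability on the edge of the grid of rates, for 379 of 403 CpGs. The median k_de was 0.962% per day in the control region window and 0.657% in its inner part, 1.16% in the upstream intergenic stretch, 1.87% in the Meg3 promoter, 2.38% in the Meg3 body, 2.88% in the Dlk1 body and 7.12% in the Dlk1 promoter. Over all captured CpGs it was 4.86% per day, and over those of 30 to 50% at day 0 it was 6.47%. On the log2 scale the median k_me was -7.25 in the control region window, -7.94 in its inner part, -6.56 in the Meg3 promoter, -3.54 in the Meg3 body and -4.43 in the Dlk1 body, beside -4.36 over the capture. Both median rates of the window were thus below those of the capture. The ranges of single CpGs were wide there, and both 95% ranges spanned less than 2 log2 units for 20 of its 97 CpGs and for 2 of the 60 of its inner part, whose medians thus rest on loosely determined rates, beside 49 of 54 in the Meg3 body. In the Dlk1 promoter 27 of 39 CpGs were identified and 10 had ranges that narrow, while 30 began below 10% at day 0. Its median rate is thus loosely determined too. The model assumes that every copy of a CpG has the same rates, which cannot be tested here for parental copies.

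The promoters nearest in profile were found over the 8 column means. Of 18858 genes with at least 10 captured CpGs within 2 kb of the start, the 5 nearest to the Meg3 promoter by Euclidean distance were 9530026F06Rik, Gm14383, Slc7a2, Hmgcll1 and Gm16662, at distances of 5.78 to 6.48 percentage points. The starts of Hmgcll1 and Gm16662 lie on opposite strands in the same stretch and share CpGs. For the Dlk1 promoter at the same width, with a mean of 26.9% that fell to 13.4% by day 29 and of 11.7% in wild type, the 5 nearest were 2810011L19Rik, Igf2r, AI836003, Ppp3cc and F2r, at distances of 1.17 to 1.68 points. Igf2r, which encodes a receptor that clears insulin-like growth factor 2 and is itself an imprinted gene, was at 26.9% at day 0 and 12.7% in wild type. It lay at 1.39 points, behind 2810011L19Rik at 1.17. The Dlk1 window averages unlike parts, with day 0 means of 7.56% in the gene's first kb and 48.7% in its second. A link of this likeness to imprinting was not tested.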

How the data were processed

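Genomic DNA was sonicated, captured with mouse methylation probes, bisulfite converted and sequenced as 51 bp read pairs, and the reads were aligned to mm9 with QuasR by the authors. The deposited table holds, for each CpG and condition, the methylation level in percent and the coverage in read counts, with the 3 replicates joined by the authors and CpGs under 50 reads in a column left out. Totals per column ran from 421283985 to 740590811 read counts on CpGs. Methylated counts were computed from level and coverage. Wild type and each later day were compared with TTKO cells at day 0 by Fisher's exact test, two-sided, adjusted by Benjamini-Hochberg over all 2177608 CpGs with a threshold of 0.05. All days share the day 0 column. Log2 odds ratios add 0.5 to each count. The share kept is the level at day 29 as a percent of that at day 0, given per CpG where day 0 was at least 20%. Rates were inferred once from the joined columns, on a grid of 80 rates per axis in steps of factor 1.1 up to 2 per day, with k_E of 0.5 per day, 8% intact alleles and a conversion error of 0.0025, and were called identified with under 0.08 of probability on the border. The tests and the rate inference were tested on simulated data. The deposited rate columns hold the authors' own inference and were not used, and 0 columns of other samples were left unmapped. None of 88 amplicon regions lay in the domain (0 amplicons), so the amplicon tables were not used. The planned model across replicates could not be run on joined columns.

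CpGs were named by rule: those nearest to each gene start, the 2 largest and 2 smallest TTKO minus wild-type differences in the control region window, the 3 largest and 3 smallest shares kept, and every captured CpG in a ZFP57 hexamer of that window or the Meg3 promoter. Other named CpGs and runs were chosen after their values were seen. Members, windows and rules were chosen with earlier results of these data known. Alternatives changed the coverage limits, the size of difference, the allowance for replicate variation, the windows, the averaging and the model's constants. Gene positions come from GENCODE M1 and sequence from mm9. Computation used python 3.11.15, numpy 2.4.6, scipy 1.17.1, pandas 2.3.3, numba 0.67.0 and matplotlib 3.10.9.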

Additional observations from a re-analysis of the deposited data

How the results depend on the processing

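No paired analysis was possible because the 3 replicates are joined in each column, so neither a replicate block nor leaving out a replicate was run. The control region window's day 0 mean went from above wild type to below it in the narrower window, and the order of the gene bodies by share kept turned with at least 100 reads (62.0% for Dlk1, 59.7% for Meg3). Of 56 recomputed counts of the wild-type comparison 50 stayed within 1.5 times, of 56 at day 29 55 did, and all 56 recomputed median rates lay within the median 95% range of the rates as reported. With a difference of at least 10 points also required, CpGs higher in wild type went from 10 to 4 in the domain and from 6 to 1 in the Meg3 body, and in the Dlk1 promoter those lower fell from 14 to 7 in wild type and from 18 to 9 at day 29. With counts reduced for an over-dispersion of 0.0055 between replicates, 6 CpGs of the domain and 2 of the Meg3 promoter were higher in wild type, and 12 of the upstream intergenic stretch lower. Means below are given as TTKO day 0, TTKO day 29 and wild type, where they moved by more than counting error. Weighted by reads they were 47.4%, 31.9% and 37.7% in the domain, 63.4%, 37.7% and 33.4% in the Dlk1 body and 64.5%, 39.7% and 49.4% in the Meg3 body. So weighted, the Dlk1 promoter had 3.79% at day 29 and 4.04% in wild type, the upstream stretch 47.6% and the Meg3 promoter 28.0% at day 29, and the control region window 43.1% at day 0. With at least 100 reads in every column they were 47.7%, 32.3% and 36.7% in the domain, 8.59%, 3.19% and 2.96% in the Dlk1 promoter and 68.6%, 40.9% and 49.2% in the Meg3 body. With that minimum the Dlk1 body had 64.4% and 39.9% at the first and last day, the upstream stretch 60.5% at day 0 and 50.9% in wild type, the control region window 44.0% at day 0 and 40.0% in wild type, and the Meg3 promoter 27.9% at day 29. Narrower windows gave 37.6%, 31.8% and 38.5% in the control region window, 38.7%, 28.1% and 37.4% in the Meg3 promoter and 11.8% at day 0 in the Dlk1 promoter. The share kept became, as a median over CpGs, 67.3% in the domain, 34.2% in the Dlk1 promoter, 52.5% in the Dlk1 body, 75.1% in the upstream stretch and 82.2% in the control region window. With at least 100 reads it was 67.6% in the domain, 62.0% in the Dlk1 body, 75.1% in the upstream stretch and 69.7% in the Meg3 promoter, and in narrower windows 84.7% in the control region window and 72.6% in the Meg3 promoter. The cause of these moves was not tested. With joined columns and intervals that cover counting error only, small differences at single CpGs are not shown to exceed the variation between cultures.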
